A study of Mus musculus with 8 samples.

Results

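The tubulin genes described here encode the alpha and beta subunits of microtubules: 4 alpha genes (*Tuba1a*, *Tuba1b*, *Tuba1c* and *Tuba4a*) and 6 beta genes (*Tubb2a*, *Tubb2b*, *Tubb3*, *Tubb4a*, *Tubb5* and *Tubb6*). They were taken by symbol from the deposited table, as 10 of its 23427 entries. All 10 passed the filter on low values (2 or more libraries with an FPKM of 1 or more), as did 12208 entries in all. FPKM counts fragments per length of transcript and per number of mapped fragments in the library, so that levels can be set side by side between genes of different length. *Tuba4a* passed only through its Day 2 and Day 3 libraries, so its call as higher on Day 3 is in part set by the filter.

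The study followed primary mouse oligodendrocyte precursor cells (OPCs), wild type (WT) on the C57BL/6J strain, as they differentiated in culture. The methods describe cells from the cortices of 3 pups of postnatal day 7, rid of microglia and endothelial cells by panning and then selected for PDGFRα, grown with PDGF-AA and CNTF, and differentiated by removing PDGF-AA and adding the thyroid hormone T3 at 40 ng/mL. The labels instead give a medium with fetal bovine serum and name another RNA kit than the methods do. Polyadenylated RNA was sequenced as stranded paired-end libraries on Day 0 (OPCs before differentiation) and on Day 1, Day 2 and Day 3 of differentiation, with 2 replicates a day and 8 libraries in all. No group carried a transgene or a knockdown, and there was no culture kept undifferentiated to a later day, so that time in culture and differentiation cannot be told apart.

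Microtubules are polymers of alpha and beta tubulin pairs, and mammals carry several genes for each subunit, called isotypes. The isotype proteins are nearly alike in their core and differ mostly in the acidic tail at the carboxyl end, which is also where most enzymes that modify tubulin act. *Tubb4a* is the beta isotype best known from myelinating oligodendrocytes, and mutations of the human gene cause a disease with too little myelin; microtubules carry myelin mRNAs and membrane into the processes of these cells.

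The depth of each library was not given, and was estimated from the steps between the deposited values as 1530000 and 1210000 fragments on Day 0, then 1230000 and 1260000 on Day 1, then 1210000 and 1320000 on Day 2, and lastly 1080000 and 950000 on Day 3 (replicate 1 and replicate 2, the order used throughout). At that depth the least abundant members rested on few fragments. The cultures matched their labels in the markers that define them. The summed FPKM of 5 OPC markers was 1853 and 1955 on Day 0, then 799 and 591 on Day 1, then 527 and 524 on Day 2, and lastly 604 and 590 on Day 3, with *Olig1* the most abundant. *Olig1* (381 and 422) and *Olig2* (147 and 122) held most of the Day 3 sum, and the paper also uses Olig2 as a marker of the whole lineage. From Day 0 to Day 3, *Pdgfra* went from 490 and 396 to 29.2 and 6.53. *Cspg4* went from 51.3 and 65.7 to 1.02 and 0.778, and *Ptprz1* from 227 and 294 to 45.6 and 38.6. The sum of 6 oligodendrocyte markers was 1074 and 787 on Day 0, then 2787 and 3511 on Day 1, then 9900 and 14225 on Day 2, and lastly 18963 and 26846 on Day 3, with *Mbp* the most abundant at 11945 in Day 3 replicate 2. The OPC sum was lower in every later library than on Day 0, and the oligodendrocyte sum was higher on each day than on the day before.

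The C-terminal tail is known as the part in which the isotype proteins differ most, so the last 60 coding bases of 5 beta genes, stop codon included, are shown to let a reader see how far the genes that exchanged places during differentiation differ from each other. The sequences were read 5′ to 3′ from the GENCODE M21 coding transcripts on GRCm38 (the assembly called mm10). For the beta genes, capitals mark bases that did not match *Tubb4a* in a global alignment of the whole coding sequences. These ends lie at Tubb4a chr17:57080690-57080749 (- strand), Tubb5 chr17:35834982-35835041 (- strand), Tubb2b chr13:34127471-34127530 (- strand), Tubb2a chr13:34074468-34074527 (- strand) and Tubb3 chr8:123421623-123421682 (+ strand).
Tubb4a: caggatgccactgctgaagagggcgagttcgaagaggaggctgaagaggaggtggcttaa
Tubb5: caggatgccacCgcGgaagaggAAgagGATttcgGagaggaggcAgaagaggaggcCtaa
Tubb2b: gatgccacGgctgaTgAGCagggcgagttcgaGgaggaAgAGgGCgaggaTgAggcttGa
Tubb2a: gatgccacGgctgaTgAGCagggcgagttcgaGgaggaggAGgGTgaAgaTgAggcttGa
Tubb3: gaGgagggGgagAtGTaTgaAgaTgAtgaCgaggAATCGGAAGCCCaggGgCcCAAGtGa
Over the whole coding sequence, *Tubb5* was 83.9% identical to *Tubb4a*, *Tubb2b* 84.5%, *Tubb2a* 84.0% and *Tubb3* 82.4%. In the last 60 bases, 83.3% of the bases of *Tubb5* matched *Tubb4a*, against 76.7% for both *Tubb2a* and *Tubb2b* and 51.7% for *Tubb3*. Before the last 60 bases the shares were 84.2% for *Tubb5*, 84.4% for *Tubb2a*, 84.8% for *Tubb2b* and 83.8% for *Tubb3*. The share of matched bases in *Tubb5* was thus about the same in the end as before it. *Tubb3*, which is widely used as a marker of neurons, had by this share the end least like that of *Tubb4a* among these genes. These shares leave out *Tubb4a* bases without a partner, and they do not say how far the protein tails differ. No sequence is shown for *Tubb6*.

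The alpha genes are more alike. Over the whole coding sequence, *Tuba1b* was 98.3% identical to *Tuba1a*, *Tuba1c* 97.1% and *Tuba4a* 84.7%. Most alpha tubulins end in a tyrosine, which vasohibins remove and tubulin tyrosine ligase puts back, and *Tuba4a* is known as the isotype that lacks it.

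This likeness limits how far reads can be assigned. Of all stretches of 75 bases, the read length, 70.4% of those in the *Tuba1a* transcript, 78.3% in *Tuba1b* and 56.7% in *Tuba1c* also occurred in another gene's transcript, mostly in each other or in pseudogenes. The shares were 43.2% for *Tubb2a* and 32.2% for *Tubb2b*, mostly with each other, and 0 for *Tubb3*, *Tubb4a*, *Tubb5* and *Tubb6*. These shares hold for single reads. The reads came in pairs, and a pair can be assigned where either read is unique, so fewer fragments than this may be uncertain. How the authors assigned reads that match several genes is not given in the sources used here, so the division of FPKM among *Tuba1a*, *Tuba1b* and *Tuba1c*, and between *Tubb2a* and *Tubb2b*, is less certain than the other values. The coding part of *Tuba4a* shared no stretch, while 97.0% of its non-coding stretches lay in *Stk16* on the opposite strand. *Stk16* was at 17.6 and 16.1 FPKM on Day 0 and at 17.1 and 13.7 FPKM on Day 3.

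*Tuba1a* and *Tuba1b* encode almost the same alpha tubulin, *Tuba1a* being the form abundant in developing neurons and *Tuba1b* one found in most tissues. *Tuba1a* (chr15:98949837-98953703, - strand) was at 2054 and 2071 FPKM on Day 0, then 4168 and 5392 on Day 1, then 5388 and 5055 on Day 2, and lastly 3829 and 2471 on Day 3. All later libraries lay above both Day 0 libraries, and Day 3 replicate 2 was the lowest of them. By rank of FPKM it was number 4 of the library in both Day 0 replicates and number 1 in Day 1 replicate 2 and Day 2 replicate 1. *Tuba1b* (chr15:98931425-98934565, - strand) was at 1184 and 1034 FPKM on Day 0, then 276 and 272 on Day 1, then 263 and 164 on Day 2, and lastly 209 and 130 on Day 3. Both Day 0 libraries stood far above every later library, with the drop complete for the most part by Day 1.

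Changes were tested in limma, a linear model fitted to log2(FPKM + 1) of all 12208 entries, and a gene was called where its p adjusted over all of them was under the threshold of 0.05. From Day 0 to Day 1, *Tuba1a* rose 2.32-fold in mean FPKM, a log2 change of 1.20 in limma (SE 0.24, adjusted p 0.0151). *Tuba1b* fell by 2.01 on the log2 scale over the same step (SE 0.27, adjusted p 0.00217 in limma), to 0.247 of its Day 0 mean. The *Tuba1a* step was not called without some libraries: without Day 0 replicate 1, Day 0 replicate 2 or Day 1 replicate 2, its adjusted p in limma was 0.130, 0.130 and 0.0778 (range over 17 settings 0.00752 to 0.130). Over the whole course, from 1109 ± 106 (SD, n = 2) to 170 ± 56.2 FPKM (SD, n = 2), *Tuba1b* fell by 2.74 on the log2 scale (95% interval -3.35 to -2.13, adjusted p 2.02e-04 in limma). *Tuba1a* went from 2062 ± 12.5 to 3150 ± 961 FPKM (SD, n = 2), a log2 difference of 0.58 that did not pass the threshold (95% interval 0.02 to 1.13, adjusted p 0.0945 in limma). Without Day 3 replicate 2 the *Tuba1a* difference was 0.89 with an adjusted p of 0.0279 in limma, and without Day 3 replicate 1 it was 0.26 with an adjusted p of 0.411 (range over 17 settings 0.0211 to 0.753). Because many single reads cannot be told apart between these genes, the sum of *Tuba1a*, *Tuba1b* and *Tuba1c* is given too. This sum depends less on how shared reads were divided. It was 3263 and 3114 FPKM on Day 0, then 4448 and 5665 on Day 1, then 5651 and 5220 on Day 2, and lastly 4040 and 2602 on Day 3. That sum was above Day 0 in all libraries of Day 1 and Day 2, and on Day 3 one library lay above and the other below the Day 0 pair.

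In a culture sampled as bulk RNA, fewer cells of a type and less RNA per cell cannot be told apart, and this holds for every change given here. The 8 markers of dividing cells moved with *Tuba1b*: their summed FPKM was 1132 and 846 on Day 0, then 61.7 and 14.8 on Day 1, then 13.1 and 9.94 on Day 2, and lastly 23.9 and 17.4 on Day 3, with *Ube2c* the most abundant at 321 and 231 on Day 0. The part of cell division in the change of the tubulin genes was not tested.

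*Tuba1c* (chr15:99029891-99038110, + strand), an isotype close to *Tuba1b*, was at 25.9 and 8.48 FPKM on Day 0, then 4.14 and 1.37 on Day 1, then 0 and 0.726 on Day 2, and lastly 1.81 and 1.92 on Day 3. The Day 0 replicates were far apart, and both lay above all later libraries. It fell by 2.48 on the log2 scale to Day 3 (SE 0.57, adjusted p 0.00999 in limma) and by 2.19 to Day 1 (SE 0.57, adjusted p 0.0406 in limma). The fall to Day 3 was not called without Day 0 replicate 1 (adjusted p 0.0769 in limma) or with a pseudocount of 0.1 (adjusted p 0.0627 in limma; range over 17 settings 0.00640 to 0.0769), and the fall to Day 1 held in 6 of 17 settings. Of the settings without 1 library, the fall to Day 1 was called in limma only without Day 0 replicate 2 or Day 1 replicate 1; leaving out any other gave an adjusted p of 0.0545 to 0.236.

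*Tuba4a* (chr1:75214228-75219865, - strand), the alpha isotype without an encoded final tyrosine, was at 0 and 0.833 FPKM on Day 0, then 0 and 0.381 on Day 1, then 0 and 2.99 on Day 2, and lastly 5.47 and 13.2 on Day 3. Only the Day 3 libraries and Day 2 replicate 2 stood clear of 1 FPKM, and every value rested on few fragments. The estimated number of fragments was 2 over both Day 0 libraries and 38 over both Day 3 libraries. The ratio of the levels was 25.6 (95% exact interval 6.63 to 219, counting error only). In limma the log2 change to Day 3 was 2.82 (95% interval 1.26 to 4.39, adjusted p 0.0127). It was no longer past the threshold in limma without Day 0 replicate 1 (adjusted p 0.0927), without Day 3 replicate 2 (adjusted p 0.0847) or with a pseudocount of 0.1 (adjusted p 0.0686), with a range over 17 settings of 0.00104 to 0.0927. Even at its highest, 13.2 FPKM, it was a small part of the alpha sum of 2616 FPKM in that library.

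**Figure D1:**
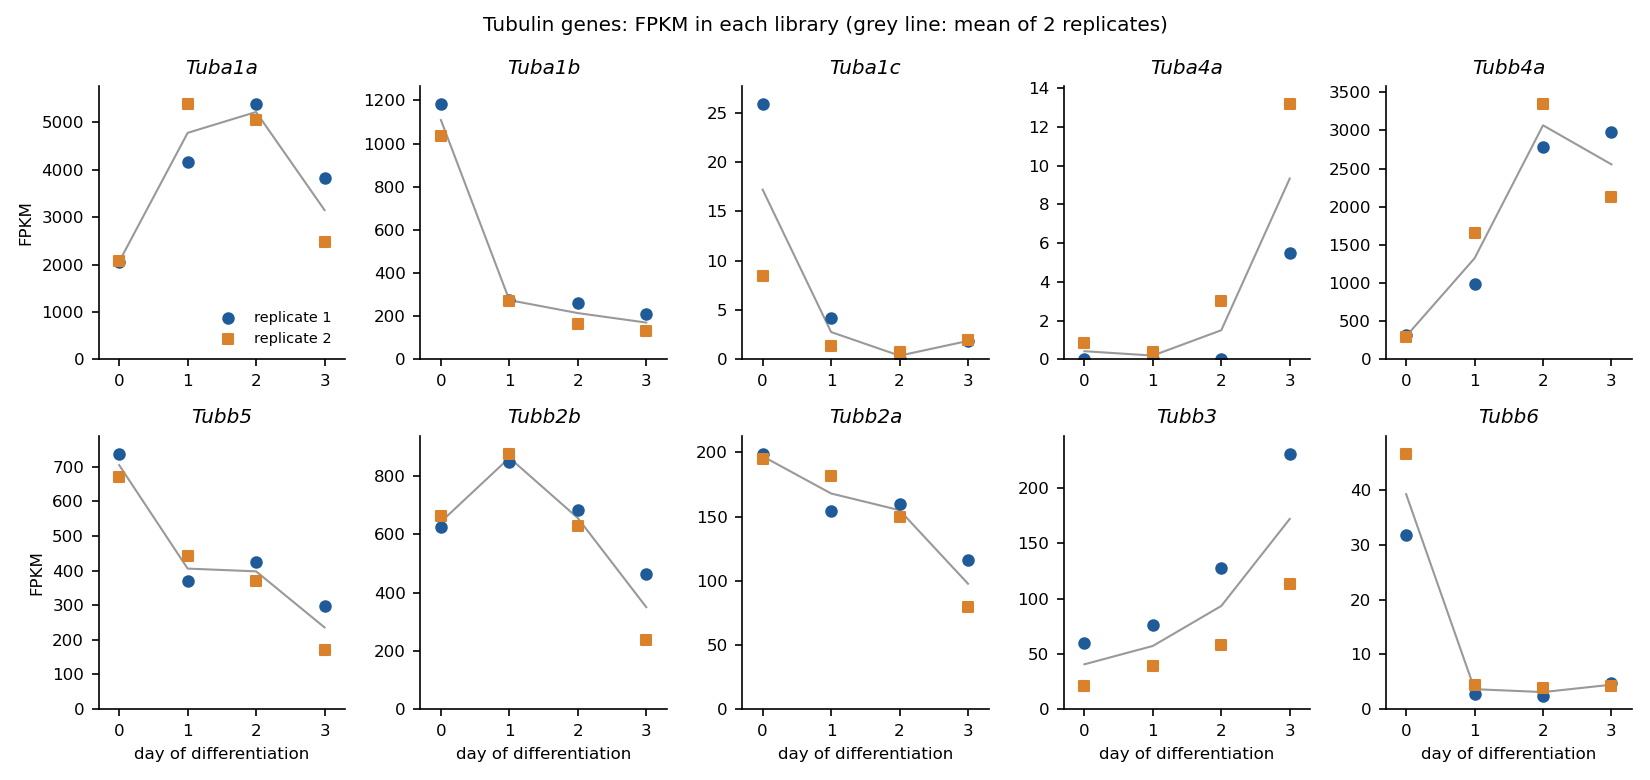
FPKM of the 10 tubulin genes against day of differentiation, each gene on its own linear axis from 0, with 1 point per library and a grey line through the day means. *Tubb4a* climbs from 313 and 292 on Day 0 to 2786 and 3348 on Day 2, while *Tuba1b*, *Tuba1c* and *Tubb6* drop by Day 1.

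Among the beta genes, *Tubb4a* (chr17:57080066-57087782, - strand) was at 313 and 292 FPKM on Day 0, then 992 and 1657 on Day 1, then 2786 and 3348 on Day 2, and lastly 2980 and 2131 on Day 3. The days did not overlap up to Day 2, and Day 2 and Day 3 did. Its rank in the library went from number 173 and 185 on Day 0 to number 4 and 6 on Day 3. The means of the 4 days were 302 ± 15.0, 1324 ± 470, 3067 ± 397 and 2555 ± 601 FPKM (SD, n = 2). It rose 8.45-fold from Day 0 to Day 3, a log2 change of 3.06 (95% interval 2.45 to 3.66, adjusted p 1.40e-04 in limma), and was called in 17 of 17 settings. The step to Day 1 was 2.08 (SE 0.27, adjusted p 0.00183 in limma). The next step, to Day 2, was 1.25 (SE 0.27, adjusted p 0.0423 in limma); it was called in 7 of 17 settings, and not when Day 0 replicate 1, Day 0 replicate 2, Day 1 replicate 1, Day 2 replicate 1 or Day 2 replicate 2 was left out (adjusted p 0.111, 0.110, 0.167, 0.0938 and 0.260 in limma; range over 17 settings 0.0281 to 0.317).

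*Tubb5* (chr17:35833921-35838306, - strand), a beta isotype found in most cell types, was the highest beta member on Day 0, at 738 and 672 FPKM. It was at 371 and 441 on Day 1, then 426 and 371 on Day 2, and lastly 299 and 172 on Day 3. No later library reached the Day 0 level, and Day 3 replicate 2 was the lowest. *Tubb5* fell by 1.63 on the log2 scale to Day 3 (SE 0.24, adjusted p 0.00134 in limma), to 0.334 of its Day 0 mean. The difference to Day 1, -0.80, was not past the threshold (adjusted p 0.0689 in limma). It was past it with the replicate number as a block (adjusted p 0.0444 in limma), with only the days compared, without Day 3 replicate 1 and without Day 3 replicate 2.

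*Tubb2a* and *Tubb2b* lie near each other on chromosome 13 (34074274-34078007 and 34126748-34130466, - strand) and encode nearly the same protein, known from developing neurons. *Tubb2b* was at 624 and 663 FPKM on Day 0, then 850 and 877 on Day 1, then 682 and 629 on Day 2, and lastly 463 and 237 on Day 3. It was highest on Day 1 and its Day 3 libraries were below all others. *Tubb2a* was at 199 and 195 FPKM on Day 0, then 154 and 182 on Day 1, then 160 and 150 on Day 2, and lastly 116 and 79.8 on Day 3. Each later library lay below both of Day 0. *Tubb2a* fell by 1.03 on the log2 scale to Day 3 (SE 0.18, adjusted p 0.00301 in limma). *Tubb2b* fell by 0.95 (SE 0.27, adjusted p 0.0234 in limma), a call lost in 7 of 17 settings, over which its adjusted p ranged from 0.00112 to 0.369 in limma; the settings without Day 0 replicate 1, Day 0 replicate 2 and Day 3 replicate 2 gave 0.0950, 0.120 and 0.0583 in limma. The exact permutation test of the *Tubb2b* slope on day also did not pass the threshold (-0.33 per day on the log2 scale, two-sided exact p 0.0690). The sum of the pair, which depends less on how shared reads were divided, was 823 and 859 FPKM on Day 0, then 1004 and 1059 on Day 1, then 843 and 779 on Day 2, and lastly 579 and 317 on Day 3.

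*Tubb3* (chr8:123411424-123422015, + strand) was at 60.2 and 20.8 FPKM on Day 0, then 75.7 and 38.6 on Day 1, then 128 and 58.4 on Day 2, and lastly 231 and 113 on Day 3. Replicate 1 was the higher on every day, and within each replicate number the level climbed with every day. *Tubb3* rose 4.24-fold to Day 3, a log2 change of 2.15 (SE 0.58, adjusted p 0.0206 in limma). The call was lost without Day 0 replicate 2 (1.41, adjusted p 0.146 in limma) and without Day 3 replicate 1 (1.64, adjusted p 0.114 in limma), with a range over 17 settings of 4.67e-05 to 0.146. With the replicate number as a block, each single step passed the threshold in limma: 0.59 to Day 1 (adjusted p 0.0393 against 0.577), 0.67 to Day 2 (0.0447 against 0.537) and 0.89 to Day 3 (0.0441 against 0.546).

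Because *Tubb3* is a marker of neurons, 12 neuronal genes in the table were read beside it. Their summed FPKM was 53.5 and 73.0 on Day 0, then 75.8 and 111 on Day 1, then 154 and 219 on Day 2, and lastly 187 and 211 on Day 3. Nearly all of the later sum was *Elavl3*, at 177 and 201 on Day 3. Without *Elavl3* the sum was 34.4 and 50.6 on Day 0 and 9.54 and 9.83 on Day 3. *Rbfox3*, *Gad1*, *Slc17a7* and *Stmn2* were at or near 0. The part of neurons in the *Tubb3* values was not tested.

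*Tubb6* (chr18:67390717-67402749, + strand), a beta isotype of many non-neural cells, was at 31.8 and 46.7 FPKM on Day 0, then 2.80 and 4.48 on Day 1, then 2.35 and 3.88 on Day 2, and lastly 4.73 and 4.19 on Day 3. The Day 0 pair stood alone, and all later libraries were under 5 FPKM. *Tubb6* fell by 3.11 on the log2 scale to Day 1 (SE 0.32, adjusted p 0.00106 in limma), to 0.0928 of the Day 0 mean, and fell by 2.86 to Day 3 (SE 0.32, adjusted p 3.55e-04 in limma). Its slope on day did not pass the exact permutation test (-0.88 per day, two-sided exact p 0.0563). By this test 7 of 10 members had a slope past the threshold, beside 41.4% of all genes tested. Permuting within replicate numbers, rescaling to the same sum and median ratio scaling each gave 6, without *Tuba1c*. A pseudocount of 0.1 gave 5, without *Tuba1c* and *Tuba4a*.

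Counted over the family, 3 of 10 members were higher on Day 3 than on Day 0 in limma (*Tuba4a*, *Tubb3* and *Tubb4a*), against 12% of all genes tested. The 6 members called lower compare with 26.3% of all genes; *Tuba1a* was the only one of the 10 not called. The groups did not overlap for any member: 4 had both Day 3 libraries above both of Day 0 (22.8% of all genes did) and 6 had both below (48.6% of all genes did). The median log2 change of all genes was -0.31, so that the shift of the whole table favoured calls downward. Relative to that median the changes were 3.37 for *Tubb4a*, 3.14 for *Tuba4a*, 2.47 for *Tubb3*, 0.89 for *Tuba1a*, -0.64 for *Tubb2b*, -0.72 for *Tubb2a*, -1.32 for *Tubb5*, -2.16 for *Tuba1c*, -2.43 for *Tuba1b* and -2.54 for *Tubb6*. Rescaling the libraries reversed no member. With each library brought to the same sum, *Tuba1a* was also called higher in limma (0.73, adjusted p 0.0407), and under median ratio scaling *Tuba1a* was called (0.89, adjusted p 0.0211 in limma) and *Tubb2b* was not (-0.64, adjusted p 0.0862 in limma). Under quantile normalization *Tuba1a* was at 0.12 (adjusted p 0.753 in limma) and *Tubb2b* was not called either (-0.36, adjusted p 0.369 in limma).

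The number of calls was highest in the earliest step, for the members as for all genes. Between Day 0 and Day 1, 2 members were called higher in limma (*Tuba1a* and *Tubb4a*; 5.04% of all genes) and 3 lower (*Tuba1b*, *Tuba1c* and *Tubb6*; 7.56% of all genes). Without Day 0 replicate 1, or without Day 1 replicate 2, 3 members were called in this step (*Tuba1b* and *Tubb6* lower, *Tubb4a* higher); of all genes, 2.94% and 3.59% were then lower and 2.03% and 2.21% higher. From Day 1 to Day 2, 1 member, *Tubb4a*, was called higher (2.16% of all genes) and 0 lower (1.73% of all genes). From Day 2 to Day 3, 0 members were called in limma in either direction, as against 0.295% of all genes, and 5 had an unadjusted p under 0.05 in limma (*Tuba1a*, *Tuba4a*, *Tubb2a*, *Tubb2b* and *Tubb5*; 14.5% of all genes). Of these, *Tuba4a* was higher on Day 3 and the others were lower. Without Day 3 replicate 1, 3 of them were called lower in limma (*Tubb2a*, *Tubb2b* and *Tubb5*), as were 1.19% of all genes in that fit. With the replicate number as a block, *Tuba4a* and *Tubb3* were called in that last step (*Tuba4a* 2.26, adjusted p 0.0452 against 0.179 in limma).

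**Figure D2:**
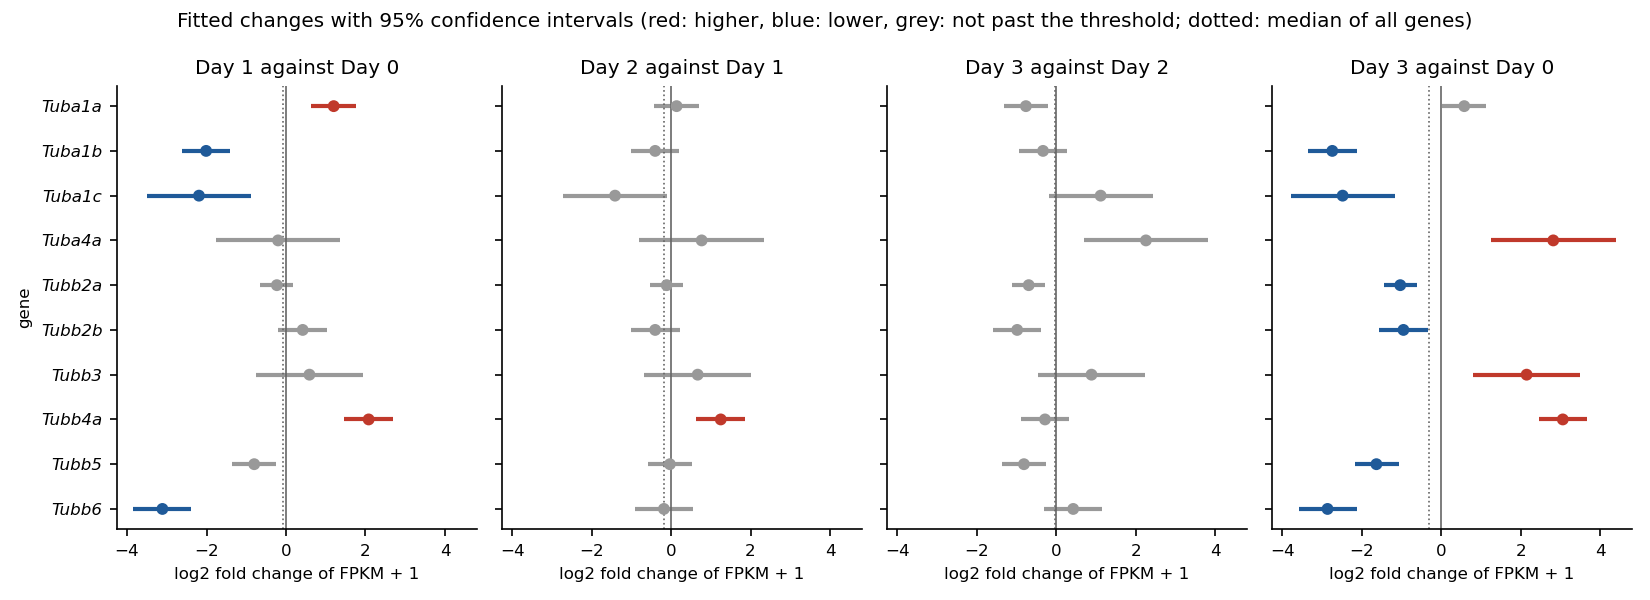
Log2 fold change of FPKM + 1 for each tubulin gene in the 3 daily steps and from Day 0 to Day 3, with 95% intervals from limma and the median of all genes tested as a dotted line; red and blue mark genes called higher and lower. From Day 0 to Day 3 *Tubb4a* is at 3.06 and *Tubb6* at -2.86 on this scale, on which the added 1 draws genes of low level toward 0.

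The isotype switch among the beta genes was tested as a difference from *Tubb4a* within the same library. The alpha genes were tested against *Tuba4a* only, so the change of *Tuba1a* against *Tuba1b* was described without a test. The plain ratio of FPKM does not depend on how libraries are scaled; the fit, on log2(FPKM + 1), does, most of all for genes of low FPKM such as *Tuba4a*, and was not run under other scalings. The ratio of *Tubb4a* to *Tubb5* was 0.424 and 0.434 on Day 0, then 2.67 and 3.75 on Day 1, then 6.54 and 9.02 on Day 2, and lastly 9.95 and 12.4 on Day 3. Thus *Tubb4a* passed *Tubb5* between Day 0 and Day 1, and no day overlapped with another. The ratio of *Tubb4a* to *Tubb2b* was 0.502 and 0.440 on Day 0, then 1.17 and 1.89 on Day 1, then 4.08 and 5.33 on Day 2, and lastly 6.44 and 8.97 on Day 3. It too was higher on each day than on the day before in every library. Among the alpha genes, the ratio of *Tuba1a* to *Tuba1b* was 1.73 and 2.00 on Day 0, then 15.1 and 19.8 on Day 1, then 20.5 and 30.8 on Day 2, and lastly 18.3 and 19.0 on Day 3, with the Day 2 libraries above those of Day 1 and Day 3 and all later libraries above Day 0.

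Against *Tubb4a*, the change of *Tubb5* from Day 0 to Day 3 was -4.68 on the log2 scale (SE 0.39, adjusted p 1.22e-31 in limma). The differences were -4.08 for *Tubb2a*, -4.01 for *Tubb2b* and -5.91 for *Tubb6* (adjusted p 3.08e-25, 5.82e-23 and 7.36e-28 in limma). All genes in that fit share the error of the *Tubb4a* values, which makes its p-values too small, and 97.5% of all genes were called, so that the 5 of 5 beta members called say nothing particular to tubulin. When the slope of each ratio on day was put to an exact permutation test, *Tubb5*, *Tubb2a* and *Tubb2b* reached the smallest p that 2520 arrangements allow (two-sided exact p 7.94e-04), as did 5.14% of all genes, and *Tubb6* gave 0.0111. With 4 of 5 beta members past the threshold beside 91.2% of all genes, this count too says nothing particular to tubulin. *Tubb3* differed from *Tubb4a* by -0.90 (SE 0.39, adjusted p 0.0216 in limma), but its ratio on Day 3 overlapped with Day 0 and its slope did not pass (exact permutation p 0.386). Without Day 0 replicate 1 the *Tubb3* difference was -0.21 (adjusted p 0.711 in limma), and without Day 3 replicate 2 it was -0.63 (adjusted p 0.205 in limma; 0.0702 with a pseudocount of 0.1; range over 11 settings 0.00430 to 0.711).

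Against *Tuba4a*, the differences were -5.56 for *Tuba1b* (SE 1.04, adjusted p 4.79e-06 in limma), -5.30 for *Tuba1c* (SE 1.11, adjusted p 6.05e-05 in limma) and -2.25 for *Tuba1a* (SE 1.08, adjusted p 0.0448 in limma). All 3 were called where 85.4% of all genes were, with the same shared error, here that of a gene with few fragments. The exact permutation p of the slope was 0.00238 for *Tuba1b* and for *Tuba1c* and 0.177 for *Tuba1a*, that is, 2 of 3 past the threshold beside 71.5% of all genes. *Tuba4a* passed the filter only through its Day 2 and Day 3 libraries. Its rise is thus in part set by the filter, and so are these differences and slopes. None of the 3 was called with a pseudocount of 0.1, and without Day 0 replicate 1 only *Tuba1b* was. The *Tuba1a* difference was also not called in limma without Day 0 replicate 2, Day 1 replicate 1, Day 1 replicate 2 or Day 3 replicate 2 (adjusted p 0.0909, 0.0805, 0.0851 and 0.358; range over 11 settings 1.21e-04 to 0.358).

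**Figure D3:**
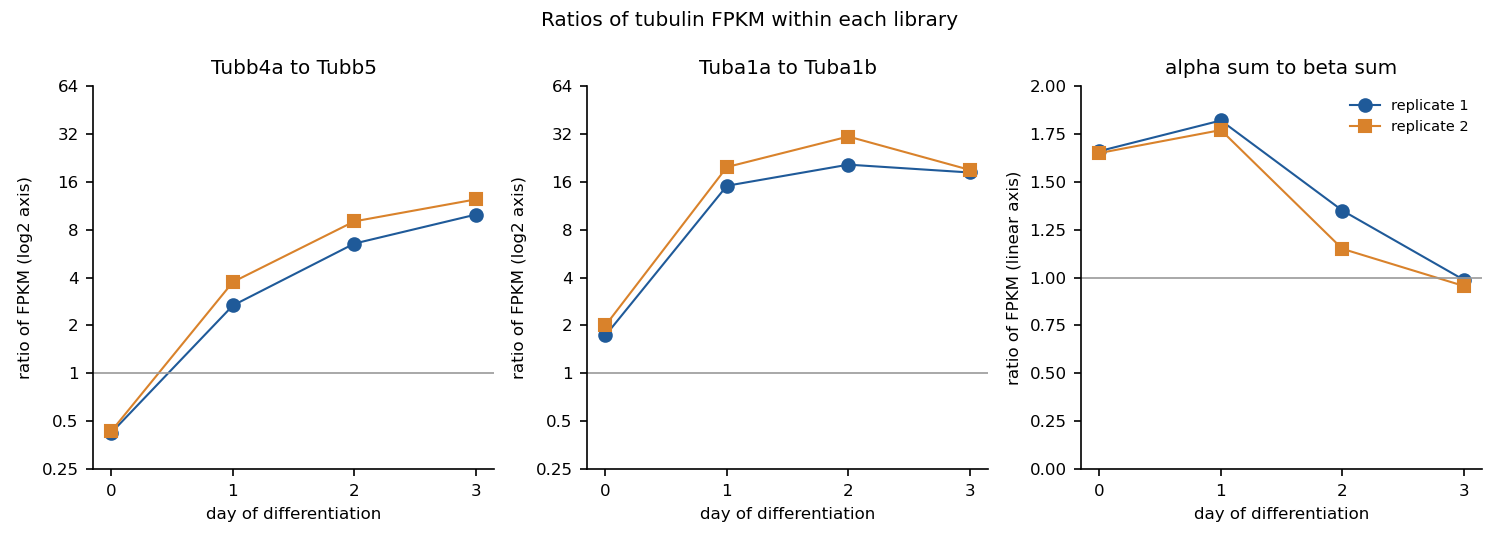
Ratios of FPKM in each library by day, *Tubb4a* to *Tubb5* and *Tuba1a* to *Tuba1b* on log2 axes and the alpha sum to the beta sum on a linear axis. The *Tubb4a* to *Tubb5* ratio goes from 0.424 and 0.434 on Day 0 to 9.95 and 12.4 on Day 3, and the *Tuba1a* to *Tuba1b* ratio from 1.73 and 2.00 to 18.3 and 19.0.

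Read as shares of the family, the switch left 1 main gene for each subunit. *Tuba1a* made up a mean of 64.7% of alpha FPKM on Day 0, and 94.4%, 96.1% and 94.6% on the days after. *Tuba1b* went from 34.7% to 5.50%, 3.90% and 5.07%. The alpha family thus kept its leading gene and lost most of the other. Among the 6 beta members the leader changed. *Tubb5* held 36.5% of their FPKM on Day 0, *Tubb2b* 33.4%, *Tubb4a* 15.7%, *Tubb2a* 10.2%, *Tubb3* 2.08% and *Tubb6* 2.04%. In Day 0 replicate 2, *Tubb5* led *Tubb2b* by little, at 672 against 663 FPKM. The division of reads between *Tubb2a* and *Tubb2b* is uncertain. On Day 3 the order was *Tubb4a* 75.3%, *Tubb2b* 9.99%, *Tubb5* 6.80%, *Tubb3* 4.88%, *Tubb2a* 2.87% and *Tubb6* 0.134%. *Tubb4b*, left out of these shares, had means of 287 FPKM on Day 0 and 200 on Day 3, against 172 for *Tubb3* on Day 3. The share of *Tubb4a* was 46.2% on Day 1 and 70.0% on Day 2. *Tuba1a* and *Tubb4a* together were 45.3% and 47.2% of the FPKM of the 10 members on Day 0, then 74.8% and 79.5% on Day 1, then 83.1% and 85.9% on Day 2, and lastly 83.7% and 86.0% on Day 3. The replicates of a day were at most a few points apart in this share, including on Day 3, where the levels of the members were not.

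The share of total FPKM was higher on Day 1 and Day 2 and lower again on Day 3. The 10 members summed to 5229 and 5005 FPKM on Day 0, then 6894 and 8865 on Day 1, then 9837 and 9783 on Day 2, and lastly 8140 and 5353 on Day 3. As percent of the FPKM of all entries this was 1.30% and 1.23% on Day 0, then 1.80% and 2.34% on Day 1, then 2.69% and 2.62% on Day 2, and lastly 2.22% and 1.49% on Day 3. Every later library lay above both Day 0 libraries, though Day 3 replicate 2 by little. The day means were 1.27 ± 0.0481%, 2.07 ± 0.380%, 2.65 ± 0.0476% and 1.85 ± 0.517% (SD, n = 2), or 1.64, 2.10 and 1.47 times Day 0 on Day 1, Day 2 and Day 3. The gain on Day 3, 0.589 points, was 0.955 without Day 3 replicate 2 and 0.224 without Day 3 replicate 1. The sum of all entries was itself lower late, at 402460 and 406515 on Day 0 and 366695 and 359540 on Day 3. The share was described without a test.

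*Tuba1a* alone was 0.510% of all FPKM in both Day 0 libraries, then 1.09% and 1.42% on Day 1, then 1.47% and 1.35% on Day 2, and lastly 1.04% and 0.687% on Day 3. *Tubb4a* was 0.0778% and 0.0718% on Day 0, then 0.259% and 0.437% on Day 1, then 0.761% and 0.897% on Day 2, and lastly 0.813% and 0.593% on Day 3. Both had their highest day mean on Day 2 and lay above Day 0 in all later libraries. Single libraries overlapped, those of *Tuba1a* between Day 1 and Day 2 and those of *Tubb4a* between Day 2 and Day 3. Without *Tubb4a*, the beta genes summed to 1652 and 1598 FPKM on Day 0, then 1454 and 1543 on Day 1, then 1399 and 1212 on Day 2, and lastly 1114 and 606 on Day 3. Without *Tuba1a*, the alpha genes summed to 1210 and 1044 FPKM on Day 0, then 280 and 273 on Day 1, then 263 and 168 on Day 2, and lastly 217 and 145 on Day 3. The larger share of the family thus came from *Tuba1a* and *Tubb4a*, while the others together lost FPKM on every day.

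The alpha and beta sums did not move in step. Alpha FPKM was 0.811% and 0.766% of the total on Day 0, then 1.16% and 1.50% on Day 1, then 1.54% and 1.40% on Day 2, and lastly 1.10% and 0.728% on Day 3. Beta FPKM was 0.488% and 0.465% on Day 0, then 0.640% and 0.845% on Day 1, then 1.14% and 1.22% on Day 2, and lastly 1.12% and 0.761% on Day 3. The ratio of alpha to beta FPKM was 1.66 and 1.65 on Day 0, then 1.82 and 1.77 on Day 1, then 1.35 and 1.15 on Day 2, and lastly 0.988 and 0.956 on Day 3. The replicates were furthest apart in this ratio on Day 2, and alpha exceeded beta in all libraries until Day 2 and in neither on Day 3. *Tubb4b*, a beta gene outside the members, would add to the beta sum at 279 and 295 FPKM on Day 0 and 231 and 169 on Day 3.

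**Figure D4:**
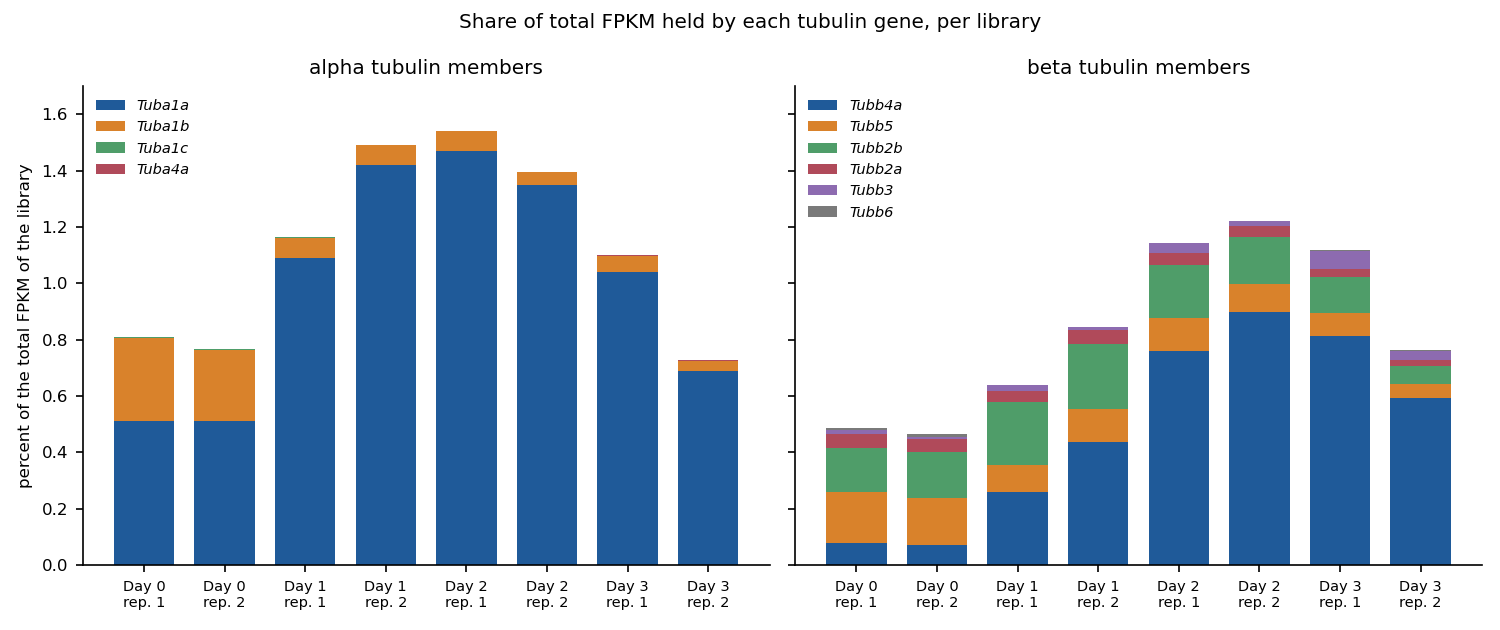
Percent of the FPKM of all entries in each library that came from tubulin genes, as stacked bars split by gene, with the alpha genes on the left and the beta genes on the right. The alpha bars reach 0.811% and 0.766% on Day 0 and 1.54% and 1.40% on Day 2, and the beta bars 0.488% and 0.465% and then 1.14% and 1.22%.

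In the members, the replicates of Day 3 differed more than those of other days. Replicate 2 was lower than replicate 1 for 8 of 10 members on Day 3 (median log2 difference -0.58), while the median over all genes was -0.05 and 54.2% of all genes were lower. On Day 0, Day 1 and Day 2, replicate 2 was lower for 6, 3 and 6 members. The oligodendrocyte marker sum was higher in replicate 2 on Day 3, as it was on Day 1 and Day 2. The 8 astrocyte markers summed to 120 and 354 FPKM on Day 0, then 167 and 522 on Day 1, then 131 and 641 on Day 2, and lastly 148 and 952 on Day 3. Replicate 2 was the higher on every day, and *Gjb6* was at 0 in all libraries. *Gfap* was the most abundant in replicate 2 (603 on Day 3) and *Aldoc* in replicate 1 (68.9 on Day 3, beside 45.5 for *Gfap*). Their part in the tubulin values was not tested. Markers of microglia, which panning should remove, summed to at most 2.51 FPKM in any library, of endothelial cells to at most 0.428, and of mural cells to at most 2.20.

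The other tubulin genes of the genome were mostly low. Of 10 genes in this list, 5 were tested, and 3 were lower on Day 3 in limma and 0 higher, where 26.3% of all genes were lower and 12% higher; the median log2 change was -0.53 beside -0.31 for all genes. *Tubg1*, the gamma tubulin from which microtubules are nucleated, went from a mean of 65.4 ± 0.497 FPKM to one of 22.3 ± 7.83 FPKM (SD, n = 2), and fell by 1.55 on the log2 scale (SE 0.24, adjusted p 0.00167 in limma). *Tube1*, the epsilon tubulin of centrioles, fell by 1.18 from a low level (SE 0.33, adjusted p 0.0222 in limma); it was not called without Day 0 replicate 1, Day 0 replicate 2 or Day 3 replicate 2 (adjusted p 0.0878, 0.0759 and 0.10 in limma; range over 16 settings 0.00578 to 0.10). *Tubb4b* fell by 0.53 (SE 0.17, adjusted p 0.0419 in limma); its call was lost in most other settings, such as rescaling to the same sum, median ratio scaling, no filter, and without Day 0 replicate 1, Day 0 replicate 2, Day 2 replicate 1, Day 2 replicate 2 or Day 3 replicate 2. Under quantile normalization only *Tubg1* of this list was called, where 17.9% of all genes were lower. Leaving out Day 0 replicate 1, Day 0 replicate 2 or Day 3 replicate 2 also left only *Tubg1*. Fewer of all genes were then called lower too.

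Tubulin polypeptides are folded by the chaperonin CCT with prefoldin and then joined into pairs by the cofactors TBCA to TBCE with the small GTPase ARL2. Of 13 CCT and prefoldin genes tested, 9 were lower on Day 3 in limma (26.3% of all genes were), none by 1 or more on the log2 scale, and 4 were lower under median ratio scaling (2045 of all 12174 genes tested were); the median was -0.69 as deposited. Of 7 cofactor genes, 2 were higher and 2 lower in limma, beside 12% and 26.3% of all genes, with a median of 0.15. *Arl2* was at 24.0 and 22.5 FPKM on Day 0 and at 72.8 and 94.9 on Day 3, a log2 change of 1.79 (SE 0.16, adjusted p 1.63e-04 in limma). *Tbcel*, a relative of the cofactor TBCE, changed by 1.42 (SE 0.21, adjusted p 0.00129 in limma). *Tbca*, which holds free beta tubulin, fell by 1.50 (SE 0.24, adjusted p 0.00190 in limma). *Tbce*, which binds alpha tubulin, fell by 1.17 (SE 0.24, adjusted p 0.00634 in limma), and was not called without Day 0 replicate 2 (adjusted p 0.0549 in limma; range over 17 settings 0.00488 to 0.0549).

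The enzymes that modify tubulin act on alpha and beta tubulin once it is made. Of 16 tested, 4 were higher and 6 lower in limma, where 12% of all genes were higher and 26.3% lower; the median was -0.29 beside -0.31 for all genes. *Sirt2*, a deacetylase of alpha tubulin that is abundant in myelin, was at 173 and 190 FPKM on Day 0, then 782 and 1416 on Day 1, then 2585 and 2840 on Day 2, and lastly 2532 and 2050 on Day 3. It was low in both Day 0 libraries, and, as for *Tubb4a*, replicate 2 was the higher on Day 1 and Day 2 and the lower on Day 3; on Day 0 the order of the replicates differed between the genes. *Sirt2* rose by 3.65 on the log2 scale (SE 0.26, adjusted p 8.02e-05 in limma). *Ttll5*, which adds glutamates to tubulin tails, rose by 1.93 (SE 0.19, adjusted p 2.24e-04 in limma). *Ttl*, the ligase that restores the final tyrosine of alpha tubulin, was at 6.57 and 10.4 FPKM on Day 0 and 2.41 and 2.06 on Day 3, and fell by 1.52 (SE 0.29, adjusted p 0.00467 in limma). *Vash2*, a vasohibin that removes that tyrosine, fell by 1.33 (SE 0.33, adjusted p 0.0138 in limma), and was not called without Day 0 replicate 1 or Day 3 replicate 1 (adjusted p 0.10 and 0.0667 in limma; range over 16 settings 0.0115 to 0.10).

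*Vash1*, the other vasohibin of the list, had a higher level than *Vash2*, with means of 68.4 FPKM on Day 0 and 62.7 on Day 3. Its log2 difference of -0.15 was not called (SE 0.21, adjusted p 0.593 in limma). *Ttll4*, a second glutamylase, fell by 1.32 (SE 0.27, adjusted p 0.00601 in limma). *Hdac6*, the other main deacetylase of alpha tubulin, fell by 1.19 (SE 0.36, adjusted p 0.0322 in limma), a call kept in 9 of 17 settings and lost without Day 0 replicate 1, Day 0 replicate 2 or Day 3 replicate 2 (adjusted p 0.165, 0.0882 and 0.167 in limma; range over 17 settings 0.00643 to 0.167). Thus *Sirt2* and *Hdac6*, which act on the same mark, moved in opposite directions. Another enzyme of the list, *Atat1*, was called higher, from a mean of 91.2 FPKM on Day 0 to 179 on Day 3. Its log2 change was 0.96 (SE 0.15, adjusted p 0.00164 in limma). Without Day 0 replicate 1, *Ttl* and *Ttll4* of the list were still called lower, and the other genes called lower with all libraries were not. Fewer of all genes were then called lower too.

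Genes of the gamma tubulin ring complex, on which microtubules start, had a median of -0.58; 3 of 9 were lower on Day 3 in limma and 0 higher, where 26.3% of all genes were lower and 12% higher. *Cdk5rap2*, which activates the complex at centrosomes, was at 18.4 and 16.7 FPKM on Day 0 and 6.87 and 4.47 on Day 3, and fell by 1.50 (SE 0.31, adjusted p 0.00682 in limma). Without Day 0 replicate 1 its adjusted p was 0.0545 in limma (range over 17 settings 0.00251 to 0.0545) and 0 of the 9 were called; without Day 0 replicate 2, or without Day 3 replicate 2, 1 was called. In those 3 fits, 14.7%, 14.8% and 17.5% of all genes were lower. Without Day 2 replicate 1 or Day 2 replicate 2, 4 of the 9 were called (25% of all genes were lower in each fit), and 5 with a filter of at least 10 FPKM in 1 library (32.7% of 8202 genes). *Tubg1* and *Cdk5rap2* were thus lower on Day 3, while the summed FPKM of the 10 members was higher. That sum was not tested, and Day 3 replicate 2 (5353 FPKM) was little above Day 0 replicate 1 (5229 FPKM). *Ttc5*, which recognises nascent tubulin and leads its mRNA to decay when free tubulin is in excess, was the 1 gene of the autoregulation list that was tested, with a log2 difference of -0.34 (SE 0.20, adjusted p 0.215 in limma).

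**Figure D5:**
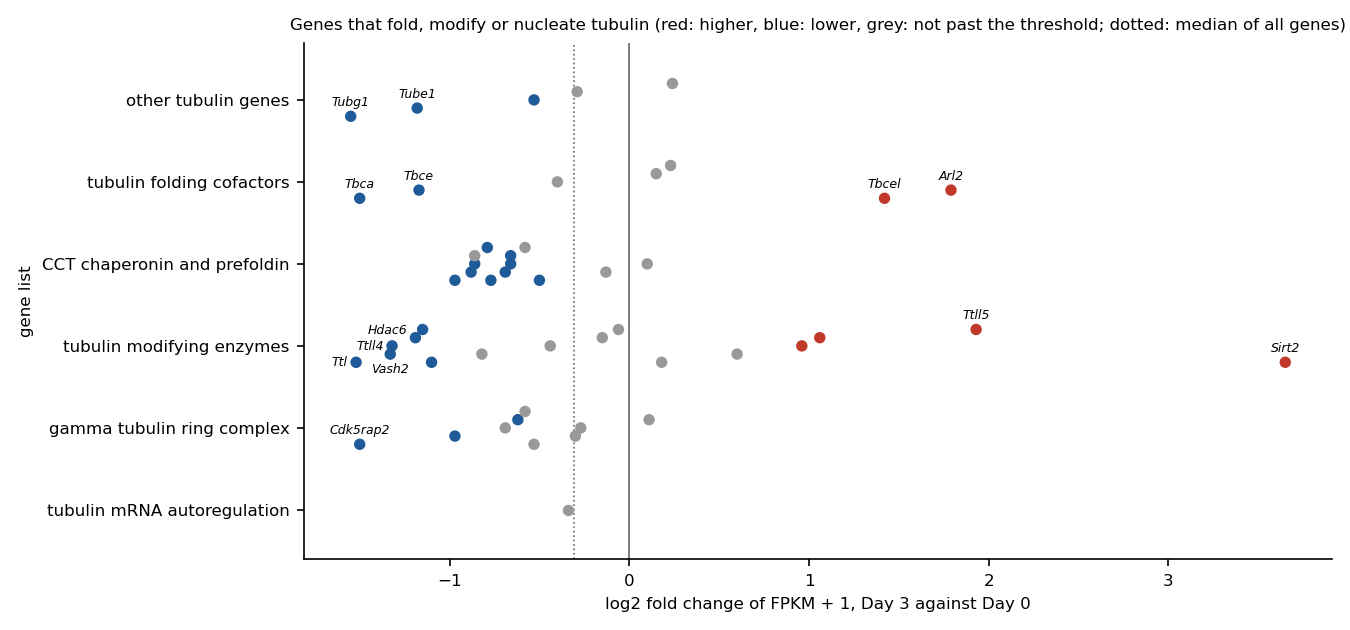
Log2 fold change of FPKM + 1 from Day 0 to Day 3 for genes that fold, modify or nucleate tubulin, 1 point per gene, with the median of all genes dotted at -0.31. *Sirt2* stands apart at 3.65, while most genes of the CCT and gamma ring lists lie left of 0.

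Among 6474 tested genes with a mean of at least 10 FPKM, those whose log2 values were most like *Tubb4a* over the 8 libraries included *Sirt2* (Pearson r 0.997, Spearman rho 0.952), *Pip4k2c* (0.996, rho 1.000), *Tmem163* (0.994) and *Gm98* (0.994). *Gm98* is the older symbol of a gene for a membrane-bound transcription factor of myelin genes. The means of *Tmem163* were 5.50, 67.6, 254 and 156 FPKM from Day 0 to Day 3, with the same peak on Day 2 as *Tubb4a*. The genes most like *Tubb5* were *Gas8* (0.993, rho 0.976), *Psat1* (0.976, rho 0.762) and *Fam173a* (0.974, rho 0.833). Next came *Asns* (0.972, rho 0.929) and *0610010K14Rik* (0.971, rho 0.929). *Psat1* and *Asns*, which make serine and asparagine, had means of 352 and 38.9 FPKM on Day 0 and 159 and 8.99 on Day 3. Among the members, *Tubb5* was most like *Tubb2a* (r 0.96 over 8 libraries), *Tuba1b* was opposite to *Tubb4a* (r -0.93), and *Tuba1a* and *Tubb4a* had an r of 0.75. These correlations describe 4 days of 2 libraries each, so that a shared course over the days is enough for a high score.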

How the data were processed

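Per the labels, the 8 libraries were 4 days (Day 0 to Day 3) with 2 replicates each. The deposited values were FPKM computed by the authors with OmicSoft ArrayStudio from paired-end reads of 75 bases on mm10; the version, gene model and use of strand are not given in the sources used here. The entries that reached 1 FPKM in 2 libraries or more (12208 of 23427) were tested as log2(FPKM + 1) in limma 3.58.1 (R 4.3.3) with day as a factor and a trend in eBayes; p-values were adjusted over all genes tested by the Benjamini-Hochberg method, with a threshold of 0.05. Only the limma fit was tested on simulated data. For each ratio the values of the reference gene were subtracted in the same library. Slopes on day were tested by exact permutation, two-sided, over 2520 arrangements. The 8 permutation tests of ratios, and the same tests over all genes, were added after the data had been seen.

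The members and lists were chosen with earlier results of these data known. All members are named. Of each list, the genes past the threshold with a log2 change of at least 1 in either direction are named, at most 6. *Tubb4b*, *Ttc5*, *Stk16*, *Atat1* and *Vash1* fall outside that rule and were chosen after their values were seen. Likeness was taken over genes with a mean of at least 10 FPKM. Libraries that share a replicate number were checked for pairing: over 6 pairs of days, their deviations from the day means correlated at 0.164 to 0.285. The pairing comes from these values, since neither labels nor methods name a shared batch; the replicate block was therefore run as an alternative. Other alternatives were a pseudocount of 0.1, other filters, quantile normalization, median ratio scaling, rescaling to 1 common sum, fits to the compared days alone, eBayes without a trend, and leaving out each library; slopes under other settings were added after the data had been seen. Fragment numbers were estimated from the steps in FPKM and transcript length, and intervals cover counting error only. Coordinates and sequences came from GENCODE M21, whose symbols matched 21548 entries. Python 3.11.15, numpy 2.4.6, pandas 2.3.3, scipy 1.17.1, biopython 1.88 and matplotlib 3.10.9 were used.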

Additional observations from a re-analysis of the deposited data

How the results depend on the processing

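Of the counts and shares that answer a comparison, 114 values under alternatives stayed within the tolerance used and 19 moved. A count could only stay or move. Only a difference in share could reverse, and none did. The tolerance was 1.5 times the count, or 1 SD between replicates for a share, so that a count of 4 beside 6 is within it. The step from Day 0 to Day 1 (5 members) had 3 members with no filter, where 3.43% of all genes were higher and 5.55% lower. It had fewer than 5 when some libraries were left out. The step from Day 1 to Day 2 (1 member) had 0 with a pseudocount of 0.1, with no filter, with quantile normalization, with only the days compared and with eBayes without a trend, and 0 to 1 when 1 library was left out. The step from Day 2 to Day 3 (0 members) had 0 to 3 when 1 library was left out, the 3 being *Tubb2a*, *Tubb2b* and *Tubb5* without Day 3 replicate 1. Of the 3 alpha genes compared with *Tuba4a*, 0 were called with a pseudocount of 0.1, and 1 to 3 when 1 library was left out. Leaving out 1 library lowered the number of members called higher or lower on Day 3 in some fits. Every fit without 1 library also called fewer of all genes in both directions on Day 3. In some of them, fewer beta genes differed from *Tubb4a*. Slopes past the threshold were 7 with all libraries (beside 41.4% of all genes) and fewer whenever 1 library was left out. The share of total FPKM on Day 3 minus Day 0 ranged from 0.224 to 0.955 points, and on Day 2 minus Day 0 from 1.35 to 1.42; with the 50 highest genes left out of the column sum, members kept, the latter was 1.65. The cause was not tested.

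With the replicate block, the step from Day 1 to Day 2 had 2 members (*Tubb3* and *Tubb4a*) and the step from Day 2 to Day 3 had 2 (*Tuba4a* and *Tubb3*). Over all genes the block gave 367 higher and 436 lower from Day 1 to Day 2, against 264 and 211, and 119 higher and 44 lower from Day 2 to Day 3. In the lists, the block added *Agbl5* (-0.82, adjusted p 0.0420 in limma) and *Tubgcp4* (-0.69, adjusted p 0.0497 in limma). With permutations within replicate numbers, 6 slopes passed in place of 7, since *Tuba1c* did not (exact permutation p 0.0694 against 0.0452). Beside these and the *Tubb5* and *Tubb3* steps given above, the block changed no other call.

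The Day 3 calls of *Tubb4a*, *Tuba1b*, *Tubb2a*, *Tubb5* and *Tubb6* held in 17 of 17 settings. A planned sum without mitochondrial genes was not run, because the table lists none. With 2 replicates a day, a lone library left after an omission was assumed to vary like the others. At 950000 to 1530000 fragments a library, *Tuba4a*, *Tuba1c* and *Tubb6* rested on few fragments, and a level near 0 is not an absence. The division of reads among *Tuba1a*, *Tuba1b* and *Tuba1c* is uncertain. FPKM measures mRNA relative to the library, so that neither tubulin protein nor total RNA per cell was measured.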
